A study of Mus musculus with 6 samples.

Results

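The doublecortin and CRMP families of migrating neurons were examined in embryonic mouse brain through 9 genes chosen by symbol. These were Dcx, Dclk1 and Dclk2 of the doublecortin family, Pafah1b1, and Crmp1, Dpysl2, Dpysl3, Dpysl4 and Dpysl5 of the CRMP family. All 9 symbols were found among the 53801 genes of the count table, and all 9 passed the minimum of 10 reads summed over the embryos. Whole brains had been taken at E16.5 from 3 Bahd1-KO embryos (Bahd1-/-) and 3 Bahd1-WT embryos (Bahd1+/+), all of the C57BL/6 strain, for sequencing of polyadenylated RNA. Heterozygous parents were mated to obtain both genotypes, and each library came from 1 embryo. BAHD1 is a scaffold of a histone deacetylase complex that helps to form repressive chromatin, and the comparison asks whether its loss alters expression before birth.

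Young neurons of the cortex leave the ventricular zone and travel to their layer by repeated extension of a leading process and displacement of the nucleus, and both steps depend on microtubules. Doublecortin (DCX) binds and stabilises microtubules in these cells, and DCLK1 and DCLK2 join the same microtubule-binding region to a kinase domain. LIS1, the product of Pafah1b1, regulates the motor dynein that pulls on the nucleus, and mutations of the human DCX and LIS1 genes cause lissencephaly, a smooth cortex. The collapsin response mediator proteins (CRMPs) bind tubulin, act in growth cones and relay the repulsive signal of semaphorin 3A. Dcx is widely used as a marker of immature neurons, while Dpysl2 and Pafah1b1 are also well known from the adult brain.

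RefSeq upstream sequences were available for 6 of the 9 genes. Of these, Dcx, Crmp1 and Dpysl5 are shown because their levels were lowest, relative to the other embryos, in the embryo that stood apart (Bahd1-KO replicate 3, described below), and Dclk1 is shown beside them because it was less low there. Dcx, Crmp1 and Dclk1 had 2 RefSeq entries each, with different transcription starts, and 1 entry of each is shown. Each sequence is written 5′ to 3′ on the strand of the gene. It covers up to 250 bases before the transcription start of that entry (GRCm38.p6), restricted to bases outside the annotated gene. Capitals mark matches, on either strand, to an E-box, which reads CANNTG, to a GC box, which reads GGGCGG, to a CCAAT box, whose name gives its letters, and to a TATA box, which reads TATAAA.
Dcx, chrX:143933312-143933469, reverse strand: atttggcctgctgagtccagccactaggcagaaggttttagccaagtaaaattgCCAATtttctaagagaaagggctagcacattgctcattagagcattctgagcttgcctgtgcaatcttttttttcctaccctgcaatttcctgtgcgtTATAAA
Crmp1, chr5:37241808-37241939, forward strand: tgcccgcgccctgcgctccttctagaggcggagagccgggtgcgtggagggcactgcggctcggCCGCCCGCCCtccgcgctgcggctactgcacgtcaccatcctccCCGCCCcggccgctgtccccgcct
Dpysl5, chr5:30711314-30711563, forward strand: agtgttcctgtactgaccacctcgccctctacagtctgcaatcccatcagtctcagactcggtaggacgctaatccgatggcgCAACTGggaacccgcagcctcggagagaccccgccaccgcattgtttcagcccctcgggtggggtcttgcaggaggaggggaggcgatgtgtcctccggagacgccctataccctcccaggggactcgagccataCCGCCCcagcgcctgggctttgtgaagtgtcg
Dclk1, chr3:55242114-55242363, forward strand: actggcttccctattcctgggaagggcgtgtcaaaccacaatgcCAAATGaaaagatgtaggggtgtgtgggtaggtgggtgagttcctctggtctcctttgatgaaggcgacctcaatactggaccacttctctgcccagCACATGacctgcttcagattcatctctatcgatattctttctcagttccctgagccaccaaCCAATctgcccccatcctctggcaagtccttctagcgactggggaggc

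The windows shown differed in GC content and in their boxes, and the values depend on the entry used. Over the full 250 bases, the Dcx window had a GC content of 41.6% with 3 CpG, a CCAAT box and a TATA box. The Crmp1 window had 75.6% GC with 30 CpG and 5 GC boxes, some of which overlap each other and some of which lie in bases not printed here. The Dpysl5 window had 62.8% GC with 17 CpG, 1 GC box and 1 E-box, and the Dclk1 window had 52.4% GC with 4 CpG, 2 E-boxes and 1 CCAAT box. In the entries not shown, the Dcx window had 44.8% GC and a TATA box but no CCAAT box. The other Crmp1 window had 59.6% GC with 16 CpG, 2 GC boxes and 1 E-box. For Dclk1 it had 46.8% GC with 4 CpG, 1 E-box and no CCAAT box. Among all 32851 windows of this length, the median was 52.4% GC, and an E-box was present in 66.2%, a GC box in 32.7%, a CCAAT box in 33.8% and a TATA box in 12.4%.

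The libraries held about 61724000 to 91782800 counts each, and Bahd1 had 2 to 10 counts in the Bahd1-KO embryos against 1971 to 3470 in Bahd1-WT. Bahd1-KO replicate 3 stood apart from the other 5 embryos and is given separately throughout. Gm42418, annotated over ribosomal RNA sequence, took 22.6% of its counts, and both mitochondrial ribosomal RNA genes together took 22.1%, against at most 0.394% and 0.279% elsewhere. Levels are given below as normalised CPM, which are counts scaled to library size (CPM) and then by trimmed mean of M-values (TMM) factors. The factor was 0.684 for Bahd1-KO replicate 3 and at least 1.04 for the other embryos.

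Marker genes in Bahd1-KO replicate 3 also departed from those of the other embryos. Summed over 12 neuron markers, the level was 2713 normalised CPM in this embryo and 6355 to 7536 in the others. Of these markers, 7 were lowest and 1 (Snap25) was highest in it. Among the 9953 genes with a mean of at least 10 normalised CPM in the other embryos, 53.1% were lowest in this embryo. All 3 markers of intermediate progenitors, the dividing cells that give rise to cortical neurons, were lowest in it, with a sum of 6.19 against 84.5 to 151. All 7 genes of oligodendrocytes and myelin were highest in it, with a sum of 1309 against 62.8 to 146. The same held for all 5 lung genes (1083 against 0.198 to 11.1), for all 5 connective tissue genes (2054 against 282 to 398), all 6 genes of dividing cells (1181 against 358 to 561) and 6 of 7 skeletal muscle genes (79.1 against 2.78 to 12.9). Radial glia genes summed to 826 against 1210 to 1475, with 5 of 7 lowest and 1 highest in this embryo. Astrocyte genes summed to 440 against 177 to 234, with 3 of 4 highest and 1 lowest. Microglia genes summed to 57.4 against 32.3 to 41.8, with 4 of 5 highest. Choroid plexus genes were split, with 2 of 4 lowest and 2 highest. Their sum of 107 against 261 to 728 was mainly set by Ttr, at 56.0 against 238 to 695. Blood genes, at 367, lay within the 120 to 538 of the other embryos. No marker of these lists was at 0 in this embryo. Lung genes were next highest in Bahd1-KO replicate 2, whose sum was 11.1 where the remaining 4 embryos had 0.198 to 0.465, and whose level of Scgb1a1, an airway secretory protein, was 6.05 against 6.52 in Bahd1-KO replicate 3. Myelin genes were next highest in Bahd1-WT replicate 1, whose sum was 146 where the remaining 4 embryos had 62.8 to 67.7. Its level of Mobp, a myelin gene, was 16.4 against 0.193 to 0.702 in those 4. Both embryos stay in every comparison that leaves out only Bahd1-KO replicate 3. The part of these marker differences in the differences described below was not tested. In whole-brain RNA fewer cells of a type and less RNA per cell cannot be told apart.

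All 9 genes were abundant to moderately expressed in Bahd1-WT brains. Together they took 0.926 to 1.07% of all counts in the 5 embryos other than Bahd1-KO replicate 3, where they took 0.0809%. Per kb of exon, Dpysl3 (chromosome 18), which encodes CRMP4, had the highest level in Bahd1-WT, with 429 ± 38.2 normalised CPM per kb (SD, n = 3). Dcx (ENSMUSG00000031285, chromosome X, 143855842 to 143933311, reverse strand, GRCm38) followed with 200 ± 58.3. Crmp1 came next with 155 ± 36.5, then Dpysl5 (CRMP5) with 108 ± 25.3, Dpysl2 (CRMP2) with 78.4 ± 8.28, Pafah1b1 with 65.7 ± 15.2, Dclk1 with 59.7 ± 11.6, Dclk2 with 20.8 ± 2.65 and Dpysl4 (CRMP3) with 13.0 ± 4.72. Ranges over the Bahd1-WT embryos did not overlap between Dpysl3 and Dcx, between Dclk1 and Dclk2, and between Dclk2 and Dpysl4. The neighbours from Dcx to Dclk1 overlapped in range between embryos. Within embryos, Crmp1 was above Dpysl5 and Dpysl5 above Dpysl2 in 3 of 3, whereas the order of Dcx and Crmp1, of Dpysl2 and Pafah1b1, and of Pafah1b1 and Dclk1 held in 2 of 3.

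**Figure D1:**
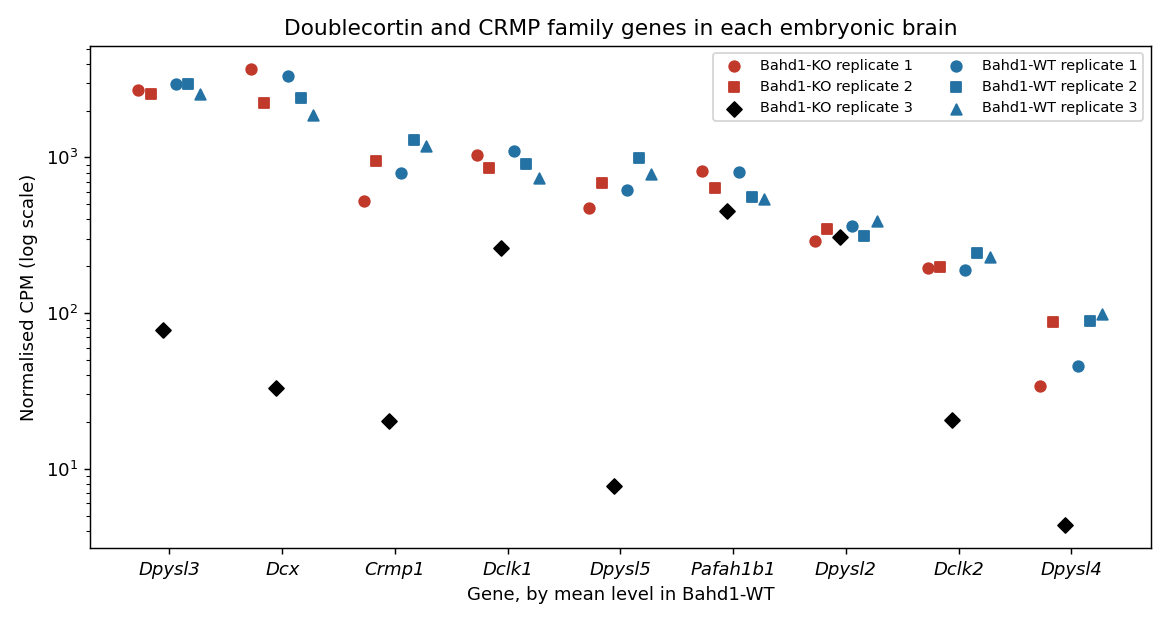
Normalised CPM (log scale) of each gene in each embryo, with genes ordered by their mean in Bahd1-WT. Circles, squares and triangles stand for replicates 1, 2 and 3, in red for Bahd1-KO and blue for Bahd1-WT, and the black diamond for Bahd1-KO replicate 3. With these TMM factors it lies below all other embryos for 8 of 9 genes, all but Dpysl2, while the other 5 embryos overlap between genotypes for every gene.

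The doublecortin family was examined first. Dcx was at 3713, 2247 and 33.0 normalised CPM in Bahd1-KO replicates 1, 2 and 3, and at 3324, 2410 and 1865 in Bahd1-WT replicates 1, 2 and 3. Bahd1-KO replicate 3 thus lay far below all other embryos, whereas Bahd1-KO replicate 1 had the highest value of all. Dclk1, which encodes a kinase with the doublecortin region, was at 1030, 857 and 260 in Bahd1-KO and at 1093, 911 and 738 in Bahd1-WT. Dclk2, its close relative, was at 195, 198 and 20.5 in Bahd1-KO and at 189, 243 and 228 in Bahd1-WT. For both kinases, too, Bahd1-KO replicate 3 was lowest and the other 2 Bahd1-KO embryos lay within the range of Bahd1-WT.

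Pafah1b1 (ENSMUSG00000020745, chromosome 11, 74673949 to 74724670, reverse strand), the LIS1 gene, was at 814, 635 and 453 normalised CPM in Bahd1-KO and at 801, 559 and 538 in Bahd1-WT. Bahd1-KO replicate 3 was lowest again, but at 67.6% of the mean of the other embryos, which themselves spanned a range of 1.51-fold.

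In the CRMP family, 4 of 5 genes followed the pattern of Dcx in Bahd1-KO replicate 3. Dpysl3 was at 2699, 2542 and 77.3 normalised CPM in Bahd1-KO and at 2985, 2979 and 2545 in Bahd1-WT. Crmp1 (ENSMUSG00000029121, chromosome 5, 37241940 to 37292133, forward strand), which encodes CRMP1, was at 524, 954 and 20.2 in Bahd1-KO and at 799, 1285 and 1186 in Bahd1-WT. Both genes were lowest in Bahd1-KO replicate 3 by a wide margin, and for Crmp1 the replicates 1 of both genotypes were the next lowest. Dpysl5 (ENSMUSG00000029168, chromosome 5, 30711564 to 30799375, forward strand) was at 473, 682 and 7.75 in Bahd1-KO and at 619, 991 and 784 in Bahd1-WT. Dpysl4 was at 33.8, 87.6 and 4.32 in Bahd1-KO and at 45.8, 88.3 and 99.2 in Bahd1-WT. The exception was Dpysl2, at 292, 348 and 308 in Bahd1-KO and at 360, 315 and 389 in Bahd1-WT, with Bahd1-KO replicate 3 inside the range of the other embryos. This exception depends on the scaling. Scaled to total counts, Dpysl2 was at 210.3 CPM in Bahd1-KO replicate 3 and at 310.3 to 430.1 in the others. Those totals include Gm42418 and the mitochondrial ribosomal RNA genes, which took 22.6% and 22.1% of the counts of Bahd1-KO replicate 3.

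No member passed the test between genotypes. In edgeR's quasi-likelihood test on all 6 embryos, 0 of 9 genes had an adjusted p under 0.05, and 0 had an unadjusted p under 0.05, against 0.00404% and 4.67% of all 24739 genes tested. Adjusted p-values of the members ran from 0.721 to 0.997. DESeq2 also called 0 of 9 (background 0.0323%) and gave 0 of 9 an unadjusted p under 0.05 (background 5.12%). In voom with embryo quality weights, 0 of 9 were called (background 0.0243%), and 1 of 9, Crmp1, had an unadjusted p under 0.05 (0.0400 in limma, background 8.95%). The groups overlapped for all 9 genes, where 2.24% of genes did not overlap and were lower in Bahd1-KO and 4.47% were higher. The median log2 fold change was -0.67 over the members and 0.06 over all genes tested, with standard errors of the members from 0.23 to 1.18. The largest fitted differences were those of Crmp1 (log2 fold change -1.13, SE 1.03) and Dpysl5 (-1.04, SE 1.14). Leaving out Bahd1-KO replicate 2 moved Crmp1 to -2.04 (SE 1.15), Dpysl5 to -1.77 (SE 1.32) and Dpysl4 from -0.89 to -2.07 (SE 0.85, edgeR unadjusted p 0.0472, adjusted p 0.244). In that fit 1 of 9 members had an unadjusted p under 0.05, as did 4878 of all 24149 genes tested.

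Without Bahd1-KO replicate 3, the standard errors fell to 0.19 to 0.46. In edgeR, 0 of 9 genes passed an adjusted p of 0.05 (background 0.0171%), and 0 had an unadjusted p under 0.05 (background 1.48%). DESeq2 gave 0 of 9 in both counts (backgrounds 0.0471% and 0.724%). The groups still overlapped for all 9 genes, where 4.35% of all genes were lower in Bahd1-KO without overlap and 6.33% higher. The median log2 fold change was -0.16 over the members and -0.01 over all genes. Crmp1 was at -0.56 (SE 0.32, edgeR unadjusted p 0.120) and Dpysl5 at -0.47 (SE 0.27, edgeR unadjusted p 0.121), while Dcx was at 0.21 (SE 0.30), Dclk1 at 0.03 (SE 0.22) and Pafah1b1 at 0.18 (SE 0.24). The remaining 4 genes lay between -0.36 and -0.13. The adjusted p was 0.981 to 0.995 for the members. These errors leave differences of the size seen for Crmp1 undecided at 2 against 3 embryos.

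**Figure D2:**
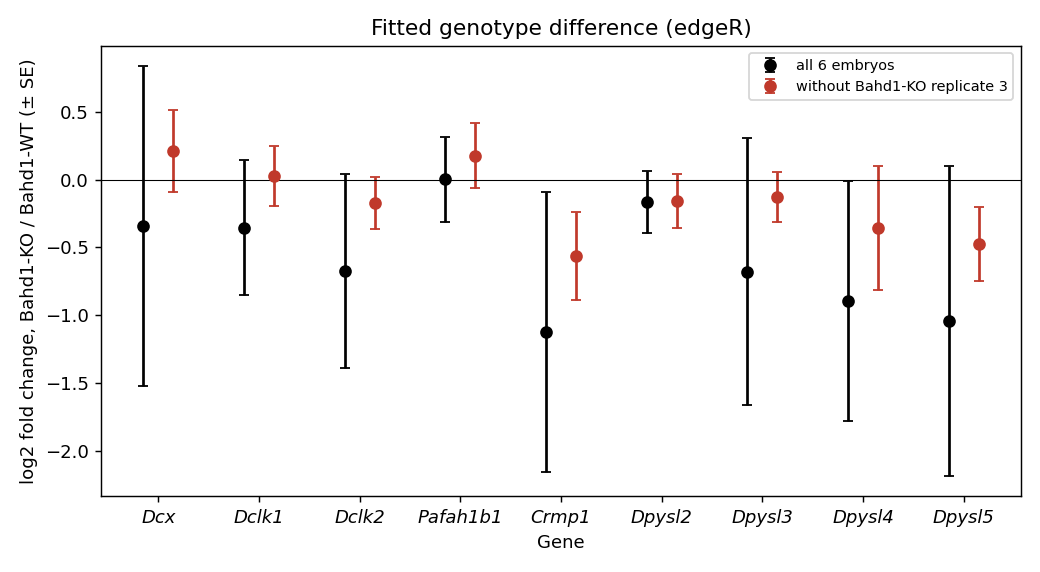
Log2 fold change of Bahd1-KO over Bahd1-WT for each gene as fitted by edgeR, with bars of 1 standard error. Black points use all 6 embryos and red points leave out Bahd1-KO replicate 3, which moved Crmp1 from -1.13 to -0.56 and Dcx from -0.34 to 0.21.

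Bahd1-KO replicate 3 did not lower the 9 genes evenly. Relative to the mean of the other 5 embryos, its level was 1.09% for Dpysl5, 1.22% for Dcx, 2.12% for Crmp1, 2.81% for Dpysl3, 6.09% for Dpysl4 and 9.75% for Dclk2. It was 28.1% for Dclk1, 67.6% for Pafah1b1 and 90.3% for Dpysl2. As 1 embryo carries these values, they are given without a test. The level in this embryo was the lowest of all 6 for 8 of 9 genes with TMM factors, against 53.1% of the 9953 genes with a mean of at least 10 normalised CPM in the other embryos, and it was at 10% or less of that mean for 6 of 9 genes, against 1.77%. It was at 50% or less for 7 of 9 genes, against 27.8%. A ratio as low as that of Dpysl5 or lower was found for 0.0402% of the 9953 genes, and one as low as that of Dcx for 0.0603%. Against this, 62.2% of genes had a ratio as low as that of Dpysl2, and the median ratio of all genes was 0.743. If levels were scaled to total counts, all ratios shifted alike, and Dpysl2 was then 1.75-fold and Dcx 129-fold lower than in the other embryos, while with TMM factors Dcx was 82.3-fold lower and Dpysl2 at the 90.3% given above.

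**Figure D3:**
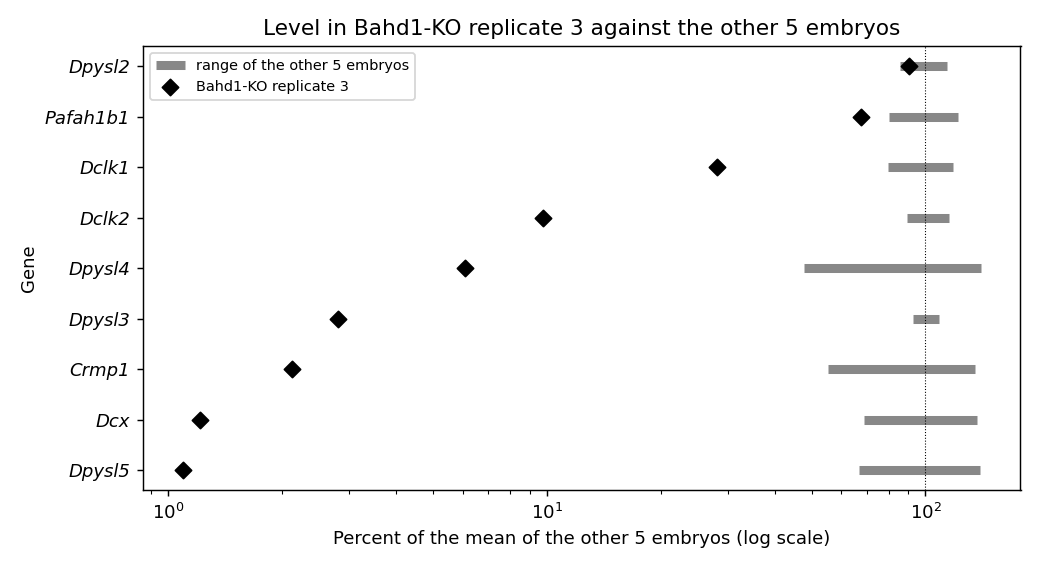
Level of each gene in Bahd1-KO replicate 3 (black diamonds) as percent of the mean of the other 5 embryos, whose range is drawn as a grey bar, on a log scale. Genes run from Dpysl5 at 1.09% to Dpysl2 at 90.3%, and with TMM factors only the Dpysl2 diamond falls within its grey bar.

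Since shares within a family do not depend on the scaling of libraries, the makeup of both families was computed per embryo from counts per kb of exon. Dpysl3 was the main CRMP transcript in 5 embryos, with 61.4, 52.9 and 50.5% of the family in Bahd1-WT, and 66.2 and 54.6% in replicates 1 and 2 of Bahd1-KO. In Bahd1-KO replicate 3 its share was 13.9%. Dpysl2 made up 10.8, 8.17 and 11.3% in Bahd1-WT, whereas the Bahd1-KO replicates had 10.5, 10.9 and 80.6%. A gene with a minor share of the family elsewhere thus dominated it in this embryo. Crmp1 fell to a share of 3.39% there (12.1 to 22.1% in the others) and Dpysl5 to 1.24% (10.4 to 15.8%). The share of Dpysl4 was 0.855%, against 0.915 to 2.17%.

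The doublecortin family changed in the same manner. Dcx made up 74.6, 69.8 and 67.9% of the family in Bahd1-WT, whereas the Bahd1-KO replicates had 77.4, 70.4 and 12.1%. Dclk1 held 17.7 to 22.2% in the 5 embryos and 78.9% in Bahd1-KO replicate 3, and Dclk2 4.88 to 9.95% and 9.03%. Between genotypes, the difference of mean shares was 23.9 percentage points for Dpysl2 (exact two-sided permutation test, p 0.5), -10.0 for Dpysl3 (exact p 0.9) and -17.5 for Dcx (exact p 0.9), where 3 embryos against 3 cannot give a p under 0.1. Without Bahd1-KO replicate 3 the differences were 0.618, 5.47 and 3.12 points (exact p 0.9, 0.5 and 0.5), so that the last 2 changed direction. The shares of Crmp1 and Dpysl5 kept theirs. They differed by -8.07 and -5.45 points (exact p 0.2 for each) with all embryos, and by -3.99 and -1.95 points without Bahd1-KO replicate 3 (exact p 0.4 for each).

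**Figure D4:**
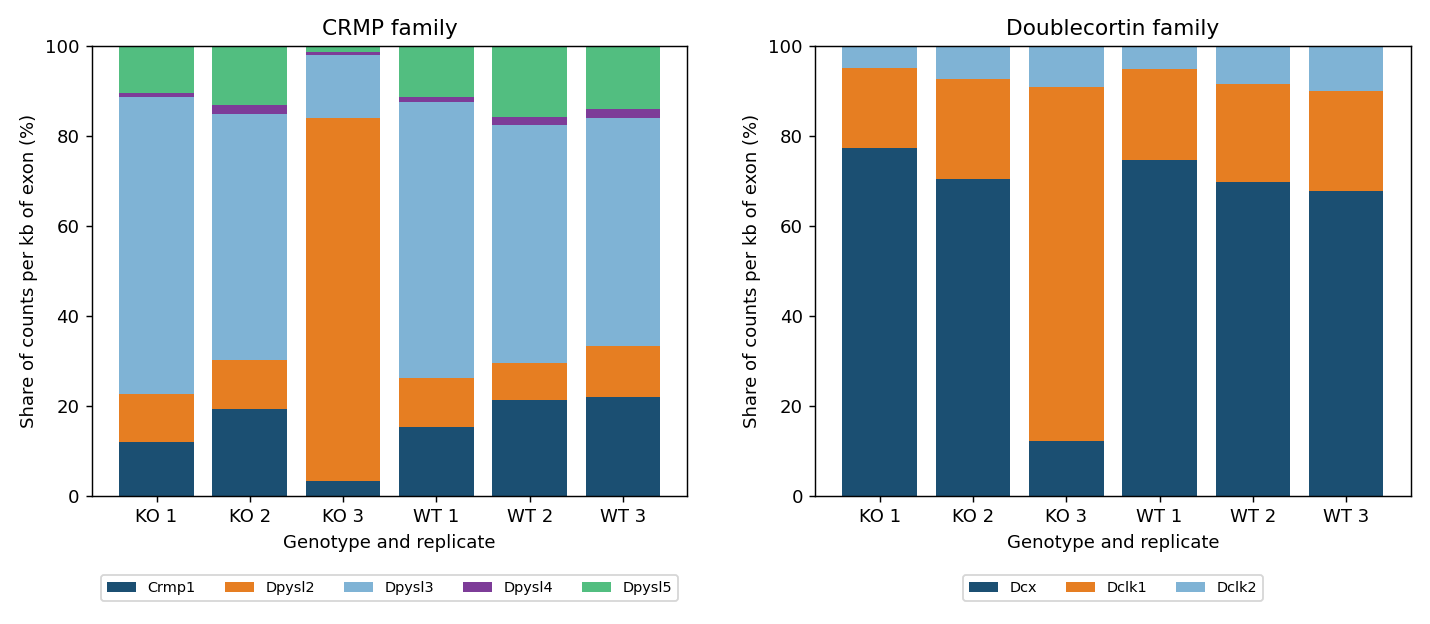
Share of each gene in the counts per kb of exon of its family, in percent, stacked for each embryo, with the CRMP family on the left and the doublecortin family on the right. Dpysl3 and Dcx fill most of the bars except in KO 3, where Dpysl2 reaches 80.6% and Dclk1 78.9%.

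The members were also set against the 12 neuron markers. For each embryo, the median log2 difference from the Bahd1-WT mean was taken over the members and over the markers. In Bahd1-KO replicate 3 it was -3.95 for the members and -2.02 for the markers, so that the members lay 1.92 lower on the log2 scale. In Bahd1-KO replicates 1 and 2 the members minus the markers gave 0.23 and -0.10, and the Bahd1-WT embryos gave 0.00 to 0.10. Between genotypes this value differed by -0.65 (exact two-sided permutation test, p 0.6) and, without Bahd1-KO replicate 3, by 0.01 (exact p 1.0). The markers themselves were uneven in that embryo. Tubb3, the neuronal beta-tubulin, was at a ratio of 0.0249 to the mean of the others, and Gap43, a growth cone protein, at 0.0778, whereas Nefl, a neurofilament subunit, was at 0.891 and Snap25, a protein of synaptic vesicle release, at 4.34. A strong fall was not limited to the members. Of the 16 other neuronal microtubule-associated proteins counted below, 15 were lowest in this embryo, among them Mapt (0.0692) and Stmn2 (0.0704). The remaining 1, Map1a, was highest in it (2.82).

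A second pattern was visible in the 5 remaining embryos, in which replicate 1 of each genotype differed from the 3 others. Dcx, Dclk1 and Pafah1b1 were higher in the replicates 1 of both genotypes than in the 3 other embryos, and Dclk2, Crmp1, Dpysl4 and Dpysl5 were lower in them. Dpysl2 and Dpysl3 followed neither order. For Dclk2 the gap was small, with 195.5 normalised CPM in Bahd1-KO replicate 1 and 198.0 in Bahd1-KO replicate 2. For Dpysl4, the replicates 1 were at 33.8 and 45.8 normalised CPM, against 87.6 to 99.2 in the others. This pattern was common, since 34% of the 9953 genes were higher and 35.8% lower in the replicates 1. The 9 genes separated by the GC content of their longest protein-coding transcript. It was 40.6% for Dcx, 43.5% for Pafah1b1 and 46.3% for Dclk1, then 48.1% for Dpysl2 and 50.1% for Dpysl3, and 52.3% for Dclk2, 56.0% for Crmp1, 56.3% for Dpysl4 and 56.6% for Dpysl5. Over all genes with this pattern, the median GC content was 43.6% for those higher and 55.3% for those lower in the replicates 1, and 49.1% for the rest. The part of GC content in the members' levels was not tested.

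**Figure D5:**
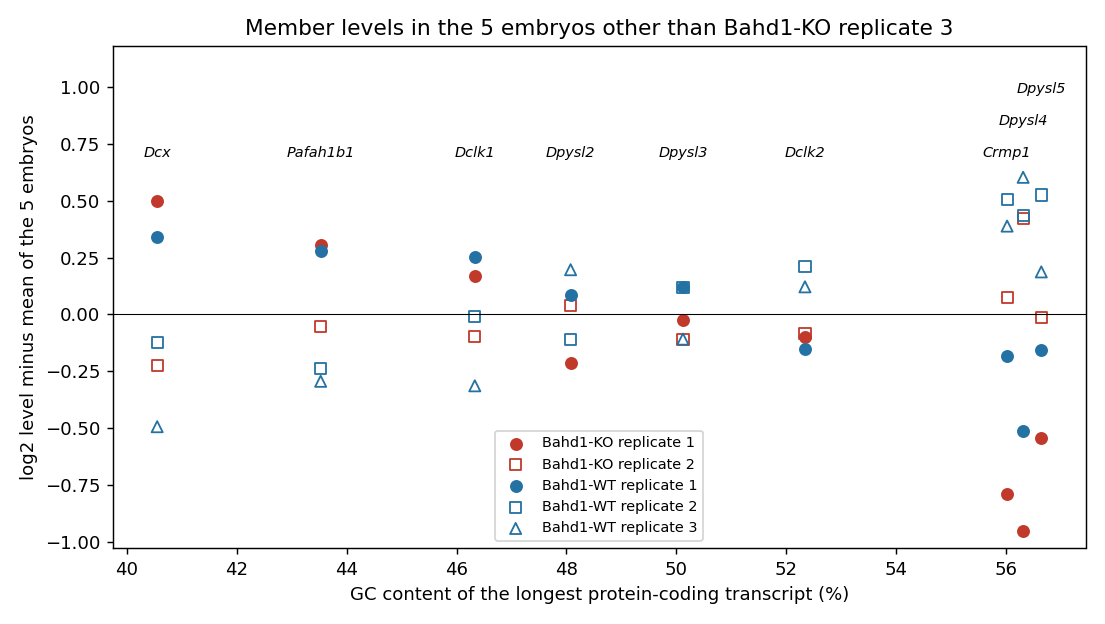
Log2 level of each gene in 5 embryos, centred on their mean, against the GC content (%) of its longest protein-coding transcript. Filled circles are the replicates 1 of Bahd1-KO (red) and Bahd1-WT (blue), which lie above 0 for the 3 genes lowest in GC and below 0 for the 4 genes highest in GC, and open symbols are the other 3 embryos.

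Genes that work with these families were counted in the same fits. Of 16 genes of LIS1 partners and the dynein and dynactin complexes, 0 passed an adjusted p of 0.05 in edgeR with or without Bahd1-KO replicate 3, and 0 had an unadjusted p under 0.05. For this list and those below, the shares over all genes tested were 0.00404% and 4.67% with all embryos. Without Bahd1-KO replicate 3 the shares were 0.0171% and 1.48%. The median log2 fold change of the 16 genes was -0.34 with all embryos and -0.16 without this one, beside 0.06 and -0.01 over all genes. The largest differences without it were those of Dctn1, a dynactin subunit (-0.69, SE 0.50), and Dync1h1, the dynein heavy chain (-0.57, SE 0.28). In Bahd1-KO replicate 3 this list was lowest for 12 of 16 genes, with a median ratio of 0.487 to the other embryos. Among the 9953 genes given above, 53.1% were lowest in it and the median ratio was 0.743. The LIS1 partners Nde1 (ratio 1.97) and Ndel1 (1.23) were highest in this embryo.

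Of 21 kinases, receptors and partners of the CRMPs, 0 passed in either fit, and 0 had an unadjusted p under 0.05. The median log2 fold change was -0.41, and -0.09 without Bahd1-KO replicate 3. The 2 largest differences without it were those of the semaphorin receptor genes Plxna3 (-0.54, SE 0.31) and Plxna1 (-0.50, SE 0.35). In Bahd1-KO replicate 3, 13 of these 21 genes were lowest and 7 were highest. Their summed level in this embryo was 2297 normalised CPM, against 3732 to 4505 in the others. Of 16 other neuronal microtubule-associated proteins, 0 passed, and 0 had an unadjusted p under 0.05 in either fit, with a median of -0.64 and -0.24. In Bahd1-KO replicate 3, 15 of these 16 genes were lowest. Their summed level there was 3320 normalised CPM, against 11451 to 13632 in the others. Map1a, a microtubule-associated protein known from mature neurons, was the single gene of this list that was highest in Bahd1-KO replicate 3. It was at 82.8, 148 and 415 normalised CPM in Bahd1-KO and at 168, 207 and 131 in Bahd1-WT. Map7d1 was at -0.50 (SE 0.46) without Bahd1-KO replicate 3. The 6 other genes with a doublecortin domain were low, with 0 called and 0 at an unadjusted p under 0.05. Dclk3 had a log2 fold change of -0.23 (SE 0.27) and Rp1 of 0.17 (SE 0.33) without Bahd1-KO replicate 3, in which Rp1 was 8.97-fold above the mean of the others, which had 0.474 to 0.733 normalised CPM, so that it reached the mean of 1 normalised CPM set for naming a gene only through this embryo.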

How the data were processed

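The deposited values were raw counts for each gene and embryo in 1 table. By the study's methods and the submitters' processing notes, the authors trimmed reads with cutadapt 1.11, aligned them to GRCm38 (STAR 2.5.0a in the notes, while the methods name TopHat2 beside a paired-end run) and counted reads over exons by strand with featureCounts 1.4.6-p3. Libraries were sequenced in several technical runs, and the table has a single column per embryo.

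Genes reaching 10 counts in total were tested with edgeR 4.0.16 (quasi-likelihood test, TMM factors, genotype as the single term, R 4.3.3), two-sided, with Benjamini-Hochberg adjustment over all genes tested and a threshold of 0.05. DESeq2 1.42.0 and limma 3.58.1 (voom) were alternatives, beside other filters, factors, left-out embryos and a replicate block. Levels per kb used exon lengths of GENCODE M21 (GRCm38). Profile distances used an offset of 0.5 normalised CPM. Shares and scores were compared by exact permutation over embryos. p-values measure the spread between embryos, which the labels call biological replicates, and depth was not limiting, as every member had at least 233 counts in each embryo. Counting error alone is thus small.

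Members, gene lists and tests were chosen with earlier results of these data known. By rule, the text names all members, the 2 genes of each pathway list with the largest difference without Bahd1-KO replicate 3 among those with a mean of at least 1 normalised CPM over all embryos, and the 5 genes nearest to Dcx, and other genes were chosen after their values were seen.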

Additional observations from a re-analysis of the deposited data

How the results depend on the processing

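The number of members called stayed at 0 in all 17 alternatives, with adjusted p-values no lower than 0.244. The number of all genes called was 1, and it was 0 with at least 10 counts in every embryo (452 at an unadjusted p under 0.05), 0 with ribosomal, mitochondrial and small RNA genes left out (1094), 8 in DESeq2, 6 in voom with embryo quality weights, 11 in DESeq2 without Bahd1-KO replicate 3, and 0 to 4 with each embryo left out, 4 of them without Bahd1-KO replicate 3. The median log2 fold change of the members, -0.67, was -0.59 with upper-quartile factors, -0.39 in voom, -0.16 in DESeq2 without Bahd1-KO replicate 3, and -1.06 to -0.16 with each embryo left out, where leaving out replicate 2 of Bahd1-KO gave the lowest value and leaving out its replicate 3 the highest. For all genes the median, 0.06, was 0.17 under upper-quartile scaling and -0.11 when only total counts were used.

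Equal replicate numbers do not mark a shared litter in the labels, and deviations of embryos with the same number correlated at 0.12, 0.18 and -0.09, so the numbers do not pair all embryos. With the replicate block the count of calls was 0 (517 at an unadjusted p under 0.05) and the members' median was -1.39. The replicate block fitted to the 5 embryos other than Bahd1-KO replicate 3 called 16 genes, none of them a member, and the median was -0.14. Crmp1 (-0.53) and Dpysl5 (-0.48) then had unadjusted p-values of 0.00276 and 0.00414 in edgeR but adjusted p-values of 0.279 and 0.300. Small unadjusted p-values were common in this fit. Of all 23334 genes tested, 2171 had an unadjusted p under 0.05, and 1597 of them were lower in Bahd1-KO. For the shares, a block over complete pairs cannot move the difference of means (23.9 points for Dpysl2), and it changed the exact permutation p from 0.9 to 1 for Dpysl3 and Dcx.

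Directions changed for 3 members. Dcx (-0.34) was at 0.0291 in voom, 0.0129 in the block without Bahd1-KO replicate 3 and 0.22 in DESeq2 without it, and ran from -1.15 to 0.21 with each embryo left out. Dclk1 (-0.35) was at 0.0218 in voom and 0.0295 in DESeq2 without Bahd1-KO replicate 3, and ran from -0.71 to 0.0298. Pafah1b1 (0.0031) was at -0.00945 with no filter, -0.12 with total counts, -0.0137 with the block and -0.0127 without the ribosomal and other genes, and ran from -0.22 to 0.18. With each embryo left out, the difference in share ran from -20.7 to 5.47 points for Dpysl3 and from -29.5 to 3.12 for Dcx, and the members relative to neuron markers from -1.07 to 0.00993, each with its highest value without Bahd1-KO replicate 3. In total, 15 of 153 alternatives for single members changed direction. The cause was not tested.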

Other observations

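The genes whose profile over the 6 embryos was nearest to that of Dcx were taken as those with the smallest root mean square difference of log2 levels, each gene centred on its mean, among 10165 genes with a mean of at least 10 normalised CPM. They were Dpysl3 (difference 0.525), Fabp7 (0.525), Draxin (0.526), Slco5a1 (0.604) and Dpysl5 (0.615). Fabp7, a fatty acid binding protein of radial glia, was at 575, 557 and 14.7 normalised CPM in Bahd1-KO and at 557, 423 and 457 in Bahd1-WT. Draxin, a secreted axon guidance protein, was at 117, 137 and 1.24 in Bahd1-KO and at 118, 176 and 163 in Bahd1-WT. Bahd1-KO replicate 3 was far below the other embryos for both. Crmp1 ranked 17th, Dclk2 97th, Dpysl4 166th and Dclk1 668th in nearness to Dcx, while Pafah1b1 ranked 3615th and Dpysl2 6045th.

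Over the 5 other embryos the nearest genes were different ones. They were Nbeal1 (difference 0.0248), Zfp955b (0.0254), Dmxl1 (0.0330), Taok1 (0.0350) and Mme (0.0351). Taok1, a kinase that acts on microtubules, was at 398 and 247 normalised CPM in Bahd1-KO replicates 1 and 2 and at 370, 269 and 215 in Bahd1-WT, highest in the replicates 1 of both genotypes as Dcx was. In Bahd1-KO replicate 3 it was at 369, where Dcx was at 33.0. Without this embryo Pafah1b1 was the member nearest to Dcx, at rank 731, and Dpysl4 the farthest, at rank 9788.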
